A study of Capra hircus with 10 samples.

Results

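The circRNAs described here come from host genes whose symbols begin with the prefix of a family of transcription factors or of the transcription machinery, such as ZNF, ZEB, SMAD, RUNX, NFI, NFAT, FOX, ELF, GLI, BNC or MED, or with CREB and a digit. A host gene is the gene from whose transcript a circRNA is spliced. The rule goes by names and holds no read count, but it was set with earlier results of these data known, and it leaves out EBF3 and RARB. It gave 47 of the 1327 circRNAs of the series, from 30 host genes. Were a digit required after every prefix, 42 would remain, without those of NFATC3, NFIX, FOXJ3 and GLIS3, and the calls of NFATC3 and NFIX below rest on the wider reading. Of these, 28 circRNAs came from 17 genes of zinc finger proteins, 5 from 5 factors regulated by signalling, 9 from 6 genes of other DNA-binding families and 5 from 2 genes of Mediator subunits. The name does not hold for every member, since ZNF330, a nucleolar zinc finger protein, and ZNF451, a SUMO ligase, are not sequence-specific transcription factors. They account for 4 of the 47 circRNAs. MED15 and MED17 are coactivator subunits that do not bind DNA sequences themselves.

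The libraries were made from total RNA of WT goat cells of intramuscular fat, in a course of adipogenic differentiation sampled at Day 0 as intramuscular preadipocytes (IMPA, 5 libraries) and at Day 3 as intramuscular adipocytes (IMA, 5 libraries). According to the methods of the study, the cells were isolated from intramuscular fat of the longissimus dorsi of male Jianzhou goat kids about a week old, and IMA were induced with oleic acid. The goat behind each library is not stated and the goats were fewer than the libraries of a group, so the SDs and p values describe libraries. The groups differ in day and in medium, whose effects cannot be told apart, and no sequencing batch is given. In the study's own mapping figures, a smaller part of the clean reads mapped in each IMA library than in each IMPA library. The part of this difference in the values below was not tested and cannot be told apart from day and medium.

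Back-splicing turns 1 or more exons of a transcript into a ring without free ends, and reads across the back-splice tell the ring from the linear RNA of the same gene. Preadipocytes become adipocytes under a cascade of transcription factors, in which signals such as bone morphogenetic proteins act through SMAD proteins, and factors of other lineages, such as RUNX2 of bone, are kept from taking over. A circRNA from such a gene does not carry the full coding sequence of the factor, and its level is not a measure of the protein.

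Junction reads, which cross the back-splice, numbered 11421 to 15553 in an IMPA library and 9622 to 12499 in an IMA library. The members held 5173 of them, and 10 of the members gave 49.5% of these reads. Of the member counts above 0, 54.2% were under 10, against 68.8% over the whole table. The value called TPM in the deposited table scales each count to 1000000 junction reads in its library, without a term for length. Normalized TPM below has TMM factors added. A junction is a single position, so these levels can be set side by side between circRNAs without a length. Non-junction reads are reads that the authors counted at the ends of a circRNA without the back-splice, and they are listed only for libraries in which that circRNA was called. All 47 members had junction reads in at least 5 libraries and were tested, and 29 of them were listed in all 10 libraries.

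The members lay in the range of the whole table in structure. Their median spliced length was 297 nt, against 320 nt over all circRNAs, and their median span in the genome was 10100 nt, against 8040 nt. The deposited annotation assigned 44 members to exons and 3 to introns, namely circ_0004316 of BNC2, circ_0011791 of MED17 and circ_0011208 of ZNF385D. The labels conflict in BNC2 and MED17, where the stretch listed as an intron of circ_0004316 or circ_0011791 is listed as an exon of circ_0004311 or circ_0011795. For 13 of the 47, the listed exons or introns fall short of an end of the circRNA, so their spliced lengths are incomplete as listed. In 4 members the spliced length equals the span, so that each is a circle of a single stretch, and these are circ_0003953 of SMAD5 (572 nt), circ_0008510 of SMAD1 (570 nt), circ_0004166 of NFIX (532 nt) and circ_0004023 of ZNF608 (256 nt).

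Among the 30 host genes, 19 had 1 circRNA, 7 had 2 and 4 had 3 or more. Of the 28 circRNAs from the 11 genes with more than 1, 17 shared their splice acceptor with another circRNA (60.7%, against 45.2% of the 609 such circRNAs in the whole table) and 4 shared their splice donor (14.3%, against 27.1%). The 4 circRNAs of MED17 all use the acceptor at 538605 of chromosome 29 (minus strand; coordinates as deposited, genome build not given in the sources used here). In ZNF280D, all 3 circRNAs use the acceptor at 49507457 of chromosome 10. In ZEB1, circ_0006966 and circ_0006968 use the acceptor at 33272240 of chromosome 13, and circ_0006958 and circ_0006962 the acceptor at 33179300, which begins the exon whose other end is the donor of circ_0006966. Circles with a common end also share non-junction reads at that end, so their non-junction values are not independent.

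No member passed the test for a change in junction reads between IMA and IMPA. With edgeR's quasi-likelihood test and Benjamini-Hochberg adjustment at 0.01, 0 of 47 members were higher and 0 were lower in IMA, where 0.464% of the 1294 tested circRNAs were called in each direction. At an unadjusted p under 0.05, 3 members were higher (4.79% of all tested) and 3 were lower (8.5%). At an adjusted p under 0.01, DESeq2's Wald test likewise called 0 members higher (0.464% of all tested) and 0 lower (0.386%). By limma voom, 0 were higher (0.386% of all tested) and 0 lower (0.541%). The log2 fold changes were above 0 for 27 members and below 0 for 20, with a median of 0.05, against -0.07 over all tested circRNAs. For 31 members, the 95% interval of the edgeR fold change lay within a change of 2-fold either way, as for 616 of all 1294. For the other 16 a change of that size was not excluded by the interval. The fit used a prior count of 2, which draws fold changes of low counts towards 0, so a 2-fold change is not excluded for all of the 31. For circ_0000541 of ZNF148, the edgeR interval was -0.74 to 0.86 in log2. Its summed reads, 12 in IMPA and 11 in IMA, gave a rate ratio of 1.1 (exact 95% interval 0.439 to 2.72, counting error only). In bulk samples such as these, fewer cells of a type and less RNA per cell cannot be told apart.

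**Figure D1:**
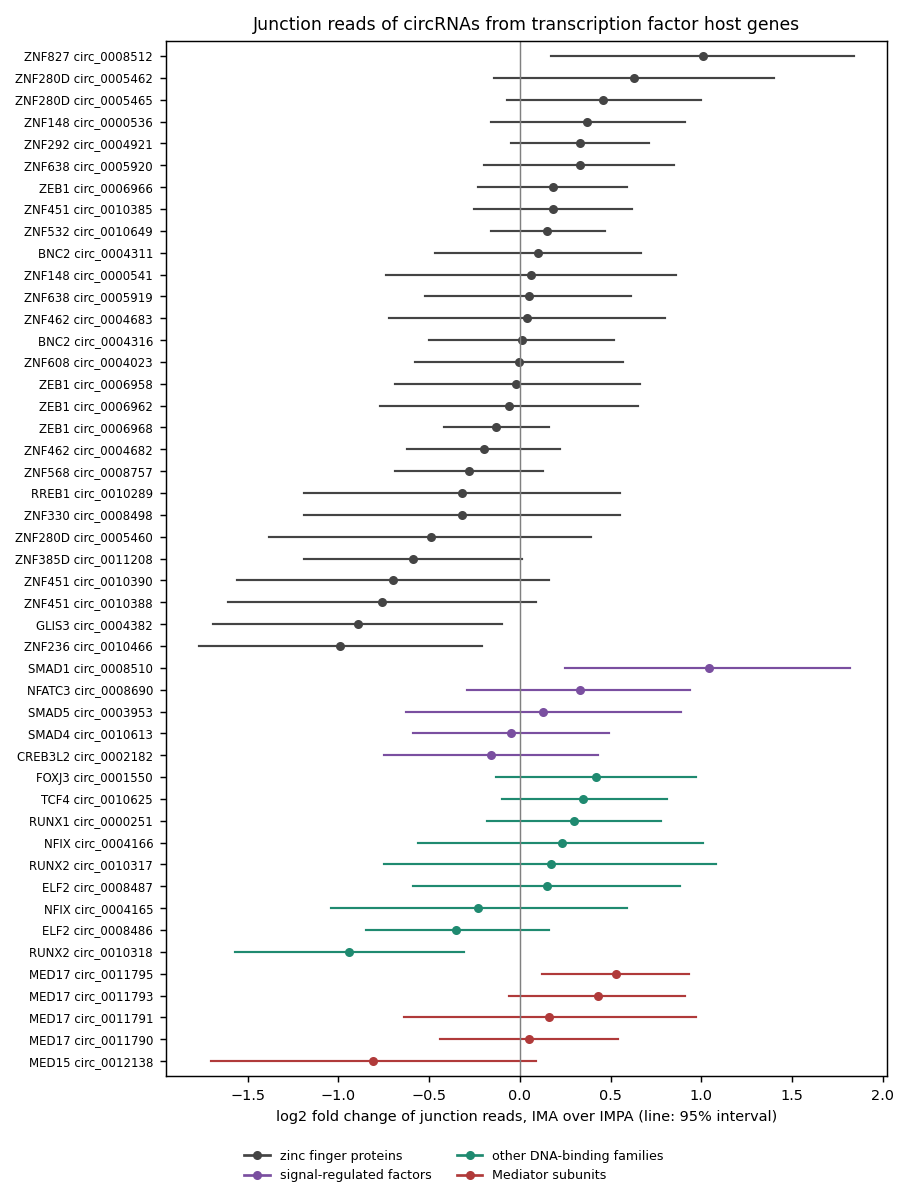
Log2 fold change of junction reads (IMA over IMPA, x axis) for each of the 47 members (y axis), as points with 95% intervals from edgeR, coloured by the role of the host gene. The fold changes of this fit, with a prior count of 2, run from -0.99 to 1.04, and none passed the threshold after adjustment. Other methods gave larger values for some low counts, such as 2.25 by DESeq2 for ZNF827 circ_0008512 and -1.9 by limma voom for MED15 circ_0012138.

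The zinc finger genes gave the most reads. ZEB1 encodes a zinc finger and homeobox factor known as a repressor of epithelial genes and as a promoter of fat cell formation, and its 4 circRNAs held 891 junction reads. The circle circ_0006968 of ZEB1 (chromosome 13, 33258516 to 33272240, minus strand, 2 exons of 141 and 157 nt) was the most abundant member and ranked 19 among all circRNAs. It had 64, 52, 58, 73 and 68 junction reads in IMPA1 to IMPA5 and 42, 41, 63, 40 and 55 in IMA1 to IMA5. Scaled to the library, its level was 4811 ± 728 normalized TPM in IMPA and 4370 ± 727 in IMA (mean ± SD of 5 libraries), and the groups overlapped. The log2 fold change was -0.13 (95% interval -0.42 to 0.16; edgeR adjusted p = 0.733, Benjamini-Hochberg). The longer circ_0006966, which adds the next exon of 201 nt, had 23, 24, 15, 26 and 28 reads in IMPA and 26, 28, 16, 24 and 17 in IMA, with a log2 fold change of 0.18 (95% interval -0.23 to 0.59). The other circles of ZEB1, circ_0006958 and circ_0006962, had 3 to 8 and 2 to 12 reads in a library. Summed over the gene, the log2 fold change was -0.01 (95% interval -0.25 to 0.23).

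ZNF532, a zinc finger protein of chromatin, gave 1 circRNA (circ_0010649, chromosome 24, 58188981 to 58203217), the next most abundant. It had 42, 58, 54, 44 and 55 junction reads in IMPA1 to IMPA5 and 53, 33, 46, 54 and 50 in IMA1 to IMA5. The groups overlapped, with a normalized TPM of 3879 ± 724 for IMPA and 4327 ± 928 for IMA (mean ± SD of 5 libraries), with a log2 fold change of 0.15 (95% interval -0.16 to 0.47). The circle of ZNF292 (circ_0004921) followed with a normalized TPM of 1770 ± 226 for IMPA and 2262 ± 615 for IMA (mean ± SD of 5 libraries), with the highest count, 35, in IMA2. Those of ZNF462 (circ_0004682) and ZNF568 (circ_0008757), a repressor of the KRAB class, stood at 1731 ± 434 and 1732 ± 398 normalized TPM in IMPA and at 1504 ± 341 and 1383 ± 157 in IMA (mean ± SD of 5 libraries). None of these passed the test, with edgeR adjusted p = 0.457 for ZNF292, 0.701 for ZNF462 and 0.566 for ZNF568 (Benjamini-Hochberg).

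Over all 28 circRNAs of zinc finger genes, the log2 fold change was above 0 in 14 and below 0 in 14. The lowest p in the group belonged to circ_0010466 of ZNF236 (chromosome 24, 2399338 to 2411998), with 12, 3, 8, 6 and 8 junction reads in IMPA1 to IMPA5 and 3, 3, 3, 0 and 2 in IMA1 to IMA5. All IMA libraries were at 3 reads or fewer, and IMPA2 lay within their range. The summed reads, 37 in IMPA and 11 in IMA, gave a rate 2.81 times higher in IMPA (exact 95% interval 1.4 to 6.1, counting error only), and the fitted log2 fold change was -0.99 (SE 0.38, Benjamini-Hochberg adjusted p = 0.215 by edgeR). GLIS3, a factor of pancreatic beta cells and thyroid, had 4, 9, 5, 9 and 9 reads of circ_0004382 in IMPA and 4, 2, 0, 3 and 3 in IMA. IMPA1 equalled IMA1 at 4 reads, and the log2 fold change was -0.89 (SE 0.39, Benjamini-Hochberg adjusted p = 0.266 by edgeR). By limma voom, the fold changes were -1.5 for ZNF236 and -1.36 for GLIS3 (adjusted p = 0.16 and 0.223, Benjamini-Hochberg).

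In the opposite direction, circ_0008512 of ZNF827, a protein of telomeric chromatin, had 2, 2, 0, 0 and 0 reads in IMPA1 to IMPA5 and 2, 3, 5, 4 and 2 in IMA1 to IMA5. Scaled by library, the groups did not overlap, as for 2 of 47 members and 2.24% of all tested circRNAs with IMA above IMPA; 0 members and 2.32% of all had IMA below IMPA. The difference rests on 4 reads in IMPA and 16 in IMA, a rate 4.79 times higher in IMA (exact 95% interval 1.55 to 19.7, counting error only) if the 3 zeros of IMPA are taken as true zeros. The fitted log2 fold change was 1.01 (Benjamini-Hochberg adjusted p = 0.233 by edgeR). It was 2.25 by DESeq2 and 2.15 by limma voom (adjusted p = 0.238 and 0.0878, Benjamini-Hochberg). The 3 circles of ZNF280D, with a common acceptor, did not share a sign. Their log2 fold changes were 0.46 for circ_0005465, 0.63 for circ_0005462 and -0.49 for circ_0005460 (edgeR adjusted p = 0.452, 0.484 and 0.666, Benjamini-Hochberg). For the SUMO ligase gene ZNF451, circ_0010385 had a log2 fold change of 0.18, while circ_0010388 and circ_0010390 had -0.76 and -0.7 (edgeR adjusted p = 0.741, 0.436 and 0.484, Benjamini-Hochberg). In IMA, circ_0010390 had at most 2 reads in a library.

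Of 43 genes on a list of transcription factors with known roles in fat cell formation, which holds PPARG, CEBPA and KLF genes, 2 had a circRNA in the table, ZEB1 and ZNF638. ZNF638 encodes a nuclear zinc finger protein known as a partner of C/EBP factors. None of the 6 circRNAs of these genes was called in junction reads (0.464% of all tested in each direction) or in non-junction reads (11.6% higher and 10.1% lower of all tested) by edgeR, and their median log2 fold change was 0.01 in junction and 0.05 in non-junction reads. In ZNF638, circ_0005920 had 14, 10, 13, 13 and 14 junction reads in IMPA and 13, 12, 29, 11 and 5 in IMA, so that IMA3 stood highest and IMA5 lowest of all libraries. A gene without a circRNA in the table may still be transcribed, and its expression was not measured here.

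SMAD1 and SMAD5 carry bone morphogenetic protein signals into the nucleus, and SMAD4 is their common partner. The SMAD1 circle circ_0008510 (chromosome 17, 58194471 to 58195040, plus strand) had 10, 0, 6, 4 and 0 junction reads in IMPA1 to IMPA5 and 12, 7, 11, 7 and 7 in IMA1 to IMA5. All IMA libraries held at least 7 reads, IMPA1 overlapped with them, and IMPA2 and IMPA5 held none. The log2 fold change was 1.04 (SE 0.39, 95% interval 0.25 to 1.82, Benjamini-Hochberg adjusted p = 0.203 by edgeR). With counts of 0 taken as missing calls, an alternative chosen after the data were seen, limma gave 0.72 (adjusted p = 0.4, Benjamini-Hochberg), the highest adjusted p of its alternatives. The lowest was 0.0633 by limma voom, with a log2 fold change of 2.2, and DESeq2 gave 1.41 (adjusted p = 0.199, Benjamini-Hochberg), so the size of the difference varied with the method. SMAD5 had a 0 in IMPA4 only, with 7, 6, 9, 0 and 16 reads of circ_0003953 in IMPA and 8, 2, 7, 8 and 10 in IMA, so that IMPA held both the lowest and the highest library. For SMAD5 and SMAD4 (circ_0010613), the log2 fold changes were 0.13 (95% interval -0.63 to 0.89) and -0.05 (95% interval -0.59 to 0.49). Zeros occurred in 29 of the 470 member counts, 9 in IMPA and 20 in IMA, and since no count of 1 occurs in the table, a 0 may stand for an RNA with reads too few to be called.

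RUNX2, the factor that commits cells to bone, hosted the member with the smallest p for junction reads. The circle circ_0010318 (chromosome 23, 30162518 to 30168616, minus strand) had 9, 11, 12, 12 and 14 junction reads in IMPA1 to IMPA5 and 9, 2, 3, 3 and 4 in IMA1 to IMA5. In 4 IMA libraries the counts lay below every IMPA library, and IMA1 lay within the IMPA range. The level was 885 ± 134 normalized TPM in IMPA and 381 ± 242 in IMA (mean ± SD of 5 libraries), with a log2 fold change of -0.94 (SE 0.31, Benjamini-Hochberg adjusted p = 0.138 by edgeR). Without IMA1 the log2 fold change was -1.24 and the edgeR adjusted p 0.0445 (Benjamini-Hochberg), and over all its alternatives the adjusted p ran from 0.0349 to 0.271. The other circle of RUNX2, circ_0010317, has the same acceptor and had 4, 2, 3, 2 and 5 reads in IMPA and 5, 9, 2, 0 and 0 in IMA, with a log2 fold change of 0.17 (95% interval -0.75 to 1.08). Whether the 2 circles change by different amounts was not tested.

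The remaining DNA-binding families covered RUNX1, a factor of blood cells, TCF4, a basic helix-loop-helix partner of lineage factors, FOXJ3, a forkhead protein, ELF2 of the ETS family and NFIX of the nuclear factor I family. In junction reads, the log2 fold changes were 0.3 for RUNX1 (95% interval -0.18 to 0.78), 0.35 for TCF4 (95% interval -0.1 to 0.81) and 0.42 for FOXJ3 (95% interval -0.13 to 0.97). Those of ELF2 were -0.35 for circ_0008486 (95% interval -0.85 to 0.16) and 0.15 for circ_0008487 (95% interval -0.59 to 0.88). The FOXJ3 circle circ_0001550 ranged from 8 to 14 reads in IMPA and from 5 to 21 in IMA, the wider spread. Both NFIX circles had few junction reads, 0, 4, 7, 6 and 7 in IMPA and 7, 4, 5, 3 and 6 in IMA for circ_0004166, and at most 4 in any library for circ_0004165.

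MED17 and MED15 are subunits of Mediator, the complex that links transcription factors to RNA polymerase II. The MED17 circle circ_0011795 (chromosome 29, 535290 to 538605, exons of 85 and 167 nt) had 20, 13, 13, 14 and 19 junction reads in IMPA1 to IMPA5 and 21, 16, 26, 19 and 17 in IMA1 to IMA5. The raw counts overlapped, but the smaller IMA libraries gave 1792 ± 230 normalized TPM against 1194 ± 181 in IMPA (mean ± SD of 5 libraries), without overlap between the groups. The log2 fold change was 0.53 (SE 0.2, Benjamini-Hochberg adjusted p = 0.204 by edgeR). The 4 circles of MED17 summed to 63, 38, 50, 40 and 60 reads in IMPA and 46, 45, 71, 56 and 54 in IMA, with a log2 fold change of 0.39 (95% interval 0.1 to 0.68, edgeR adjusted p = 0.155, Benjamini-Hochberg). In this test of reads summed per host gene, 0 of 30 host genes were called in either direction, and 0.542% of 922 were called higher and 0.759% lower. At an adjusted p under 0.05, 0 were higher (0.651% of all) and 0 lower (1.52% of all), and at an unadjusted p under 0.05, 3 were higher (6.94% of all) and 3 lower (9.22% of all). For MED15, circ_0012138 had 3, 4, 6, 7 and 7 reads in IMPA and 4, 5, 0, 0 and 0 in IMA, with an edgeR log2 fold change of -0.81 (95% interval -1.7 to 0.09). Its size varied with the method, at -1.3 by DESeq2 and -1.9 by limma voom (adjusted p = 0.471 and 0.117, Benjamini-Hochberg).

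The difference between groups in the part of the junction reads held by the members depended on the scaling of the libraries. Their share was 3.98%, 4.19%, 3.98%, 4.19% and 4.05% in IMPA1 to IMPA5 and 4.37%, 4.57%, 4.57%, 4.55% and 4.49% in IMA1 to IMA5. Unscaled, each IMA library lay above each IMPA library, with means of 4.08% ± 0.105 and 4.51% ± 0.0852 (mean ± SD of 5 libraries) and a difference of 0.431 percentage points. With TMM factors in the library sizes, as in the tests above and chosen here after the data were seen, IMPA averaged 4.19% and IMA 4.39%, the difference was 0.2 percentage points, and IMPA4 and IMA1 met at 4.3%, so the groups overlapped. No p is given for this sum, since the members were chosen with earlier results of these data known. With only the circRNA of most reads of each host gene, the unscaled difference was 0.31 percentage points.

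Non-junction reads, which come mainly from linear transcripts of the same locus, outnumbered junction reads for most members. Among the 29 members listed in all libraries, 2 were called higher in IMA (11.6% of the 690 circRNAs tested) and 0 were called lower (10.1% of those tested) by edgeR at an adjusted p under 0.01. At an unadjusted p under 0.05, 5 members were higher (22.9% of all) and 4 lower (21.9% of all). DESeq2's Wald test called 0 members higher (9.71% of all) and 0 lower (8.84% of all) at an adjusted p under 0.01. The members' median log2 fold change was 0.02, against 0.000771 over all 690. All 29 intervals lay within a change of 2-fold, as did those of 674 of all 690. The overall split depended on scaling, with 80 circRNAs higher and 70 lower with TMM, and 48 higher and 106 lower without it.

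The call of ZNF148, a zinc finger protein that binds GC-rich promoters, concerns the ends of circ_0000536 (chromosome 1, 69493384 to 69530360, minus strand). It had 230, 181, 232, 214 and 268 non-junction reads in IMPA1 to IMPA5 and 186, 161, 212, 153 and 196 in IMA1 to IMA5. Per 1000000 non-junction reads, with TMM factors, this was 1066 ± 49.5 CPM in IMPA and 1284 ± 92.1 CPM in IMA (mean ± SD of 5 libraries). The scaled groups did not overlap, as in 2 of the 29 members and 12.2% of all 690 with IMA above IMPA, and in 0 members and 10% of all with IMA below. The log2 fold change was 0.26 (SE 0.08, Benjamini-Hochberg adjusted p = 0.00771 by edgeR). In 7 of 10 fits with 1 library removed the call did not hold, with Benjamini-Hochberg adjusted p by edgeR of 0.0135 without IMPA1, 0.019 without IMPA2, 0.0151 without IMPA4, 0.0149 without IMA1, 0.01 without IMA3, 0.0105 without IMA4 and 0.034 without IMA5. The fold change stayed between 0.23 and 0.29, and the adjusted p of all alternatives ran from 0.00606 to 0.0377. The junction reads of this circle had a log2 fold change of 0.37 (95% interval -0.16 to 0.91).

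NFATC3, a factor activated by calcium through calcineurin, was the other member called. At circ_0008690 (chromosome 18, 36813005 to 36816073, plus strand), it had 178, 170, 193, 187 and 238 non-junction reads in IMPA1 to IMPA5 and 128, 150, 203, 152 and 161 in IMA1 to IMA5. The level was 916 ± 38.6 CPM in IMPA and 1122 ± 126 CPM in IMA (mean ± SD of 5 libraries), and only IMA1 overlapped with IMPA. The log2 fold change was 0.29 (SE 0.09, Benjamini-Hochberg adjusted p = 0.00929 by edgeR), and 0.36 without IMA1 (adjusted p = 0.00134, the lowest of its alternatives, which reached 0.0395). In 8 of 10 fits with 1 library removed the call did not hold, with Benjamini-Hochberg adjusted p by edgeR of 0.0294 without IMPA1, 0.0141 without IMPA2, 0.015 without IMPA3, 0.0151 without IMPA4, 0.0176 without IMA2, 0.0294 without IMA3, 0.0291 without IMA4 and 0.026 without IMA5. The fold changes of these 8 fits were 0.26 to 0.3. Without TMM both calls were lost as well, with log2 fold changes of 0.2 for ZNF148 and 0.22 for NFATC3 (edgeR adjusted p = 0.0377 and 0.0395, Benjamini-Hochberg).

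Between 0.01 and 0.05 stood CREB3L2, a bZIP factor anchored in the endoplasmic reticulum, with 401 ± 59.8 CPM in IMPA and 531 ± 109 CPM in IMA (mean ± SD of 5 libraries; log2 fold change 0.41, edgeR adjusted p = 0.0154, Benjamini-Hochberg). Its circle circ_0002182 had 78, 89, 82, 66 and 107 non-junction reads in IMPA and 56, 70, 120, 66 and 69 in IMA, where IMA3 stood highest. Without IMA3 its log2 fold change was 0.27 (Benjamini-Hochberg adjusted p = 0.108 by edgeR), and over its alternatives the adjusted p ran from 0.00471 to 0.108. ZNF638 had a log2 fold change of 0.19 at circ_0005919 (edgeR adjusted p = 0.048, Benjamini-Hochberg), with 0.26 without IMPA4 (adjusted p = 0.00365) and 0.12 without TMM (adjusted p = 0.195) as its extremes. BNC2, a basonuclin of mesenchymal cells, had lower values in IMA at both circles, with log2 fold changes of -0.29 at circ_0004311 and -0.3 at circ_0004316 (edgeR adjusted p = 0.0218 and 0.0273, Benjamini-Hochberg). Without TMM both passed the threshold, at -0.36 (Benjamini-Hochberg adjusted p = 0.00639 by edgeR) and -0.37 (0.00828), and over the alternatives the adjusted p ran from 0.00279 to 0.0719 and from 0.00828 to 0.0662. These circles share the donor at 27547321 of chromosome 8 and therefore part of these reads. For RUNX2 circ_0010318, non-junction reads had a log2 fold change of -0.33 (edgeR adjusted p = 0.0526, Benjamini-Hochberg). Without IMA1, the library that stood apart in this circle, it was -0.21 (adjusted p = 0.225), and over its alternatives the adjusted p ran from 0.0227 to 0.225.

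Members not listed in every library were reached by a limma test that kept unlisted libraries as missing values, chosen after the data were seen. It covered 45 members and called 2 higher (9.97% of 1183 tested) and 2 lower (9.55%) at an adjusted p under 0.01. Both lower calls were NFIX, a factor of fetal muscle development, at its 2 circles, named here after their values were seen. The circle circ_0004166 (chromosome 7, 97922485 to 97923016) had 33, 48, 59 and 43 non-junction reads in IMPA2 to IMPA5, was not listed in IMPA1, and had 8, 16, 24, 14 and 13 in IMA1 to IMA5. The scaled values did not overlap, at 219 ± 55.5 CPM in IMPA (SD, n = 4) and 105 ± 31.4 CPM in IMA (SD, n = 5), with a log2 fold change of -1.05 (95% interval -1.56 to -0.55, limma adjusted p = 0.00199, Benjamini-Hochberg). At circ_0004165, which lies elsewhere in the gene (chromosome 7, 97874132 to 97876336), the reads were 26, 33, 43, 47 and 39 in IMPA and 11, 22, 13 and 9 in the 4 IMA libraries that list it. IMA3 (129 CPM) lay above IMPA1 (124 CPM), so the groups overlapped there, and the log2 fold change was -0.91 (limma adjusted p = 0.0051, Benjamini-Hochberg). Junction reads of the NFIX circles had log2 fold changes of 0.23 (95% interval -0.56 to 1.01) for circ_0004166 and -0.23 (95% interval -1.04 to 0.59) for circ_0004165.

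The higher calls of that limma test were ZNF148 circ_0000536 (adjusted p = 0.00746, Benjamini-Hochberg) and ZNF330, also named after its values were seen. At ZNF330 circ_0008498 there were 386, 306, 407, 339 and 426 non-junction reads in IMPA and 314, 388 and 313 in IMA1, IMA3 and IMA5. The scaled level was 1769 ± 128 CPM in IMPA (SD, n = 5) and 2258 ± 31.7 CPM in IMA (SD, n = 3), with a log2 fold change of 0.36 (limma adjusted p = 0.00115, Benjamini-Hochberg). NFATC3 was at limma adjusted p = 0.0121 (Benjamini-Hochberg) in this test. SMAD1, listed in 3 IMPA libraries, had a log2 fold change of 0.3 in non-junction reads (limma adjusted p = 0.0232, Benjamini-Hochberg).

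**Figure D2:**
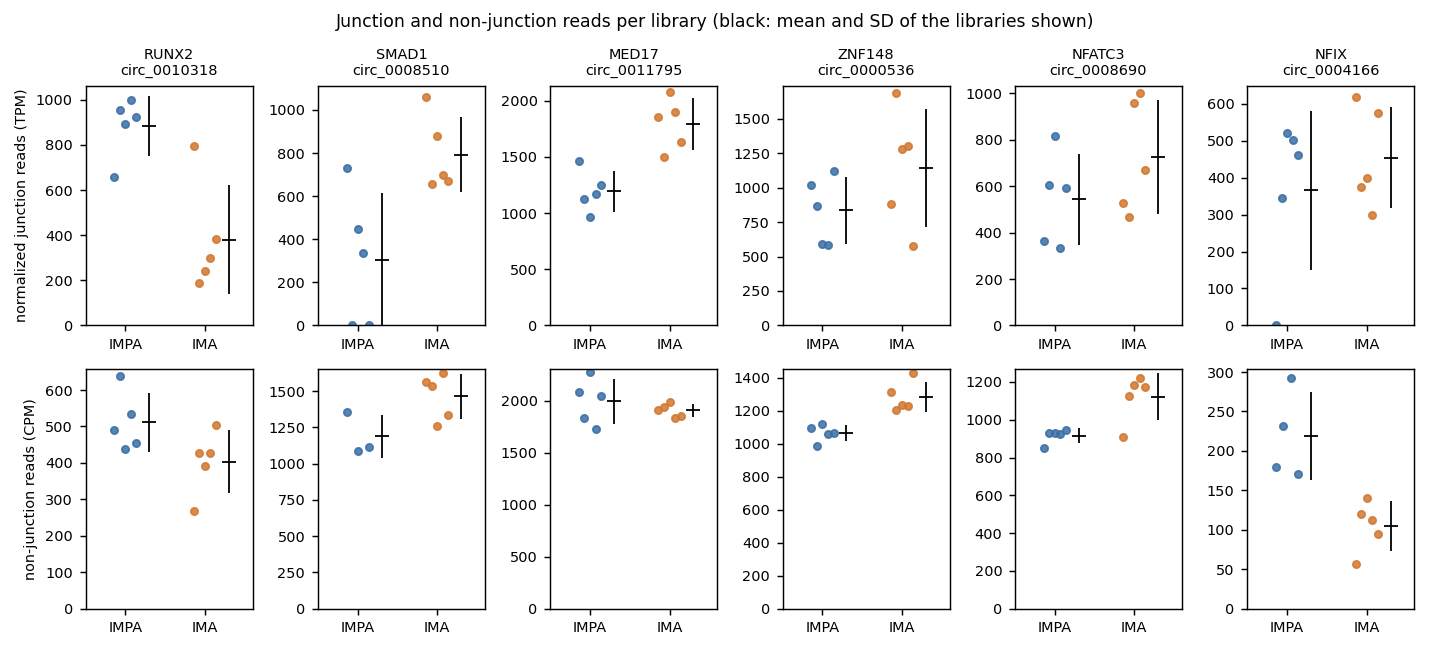
Normalized junction reads (TPM, top) and non-junction reads (CPM, bottom) of 6 members in each library, with the mean and SD of the libraries shown in black. Non-junction points of NFIX lie lower in IMA while its junction points overlap, and the 5 IMA junction points of MED17 lie above the 5 of IMPA.

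The circular share is 2 times the junction reads over that sum plus the non-junction reads. Among the 29 members listed in all libraries, it differed more from member to member than from day to day. Over the 29 members listed in all libraries its median was 12.4%, against 11.4% over all 690 circRNAs, and 2 members (6.9%) exceeded 50%, against 5.07% of all. These were ZEB1 circ_0006968 and ZNF532 circ_0010649. ZEB1 circ_0006968 had shares of 67.0%, 66.7%, 70.7%, 67.3% and 70.1% in IMPA1 to IMPA5 and 66.7%, 64.6%, 73.7%, 74.8% and 78.0% in IMA1 to IMA5. The share counts each junction read 2 times, so a share over 50% need not mean more junction than non-junction reads, as in IMA2 with 41 and 45. The other circles of ZEB1 had medians of 35.4% (circ_0006966), 10% (circ_0006958) and 6.04% (circ_0006962). ZNF532 had 65.1%, 63.0%, 65.1%, 58.7% and 56.1% in IMPA and 76.3%, 61.1%, 61.7%, 67.5% and 68.0% in IMA, with overlap of the groups. At the other end were ZNF148 circ_0000541 at a median of 1.99% and ZNF330 circ_0008498 at 2.4%, where 2 to 6 junction reads stood against 212 to 426 non-junction reads in the libraries that list them. Among members not listed in every library, listed shares lay higher in IMA without overlap for NFIX circ_0004166 (means 20.9%, n = 4, and 40.9%). The same held for MED17 circ_0011791 (4.02% and 7.89%, n = 4), ZNF148 circ_0000541 (1.71% and 3.1%, n = 3) and ZNF827 circ_0008512 (27.9%, n = 2, and 50.1%). The listed shares of the rest overlapped. Libraries with 0 junction reads are left out, which were IMA1 for MED17 and IMA2 and IMA4 for ZNF148. With shares of 0 there, the groups of these circles would overlap. How often listed shares separate among all circRNAs not listed in every library was not counted. Members not listed in every library were outside the ratio test below.

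**Figure D3:**
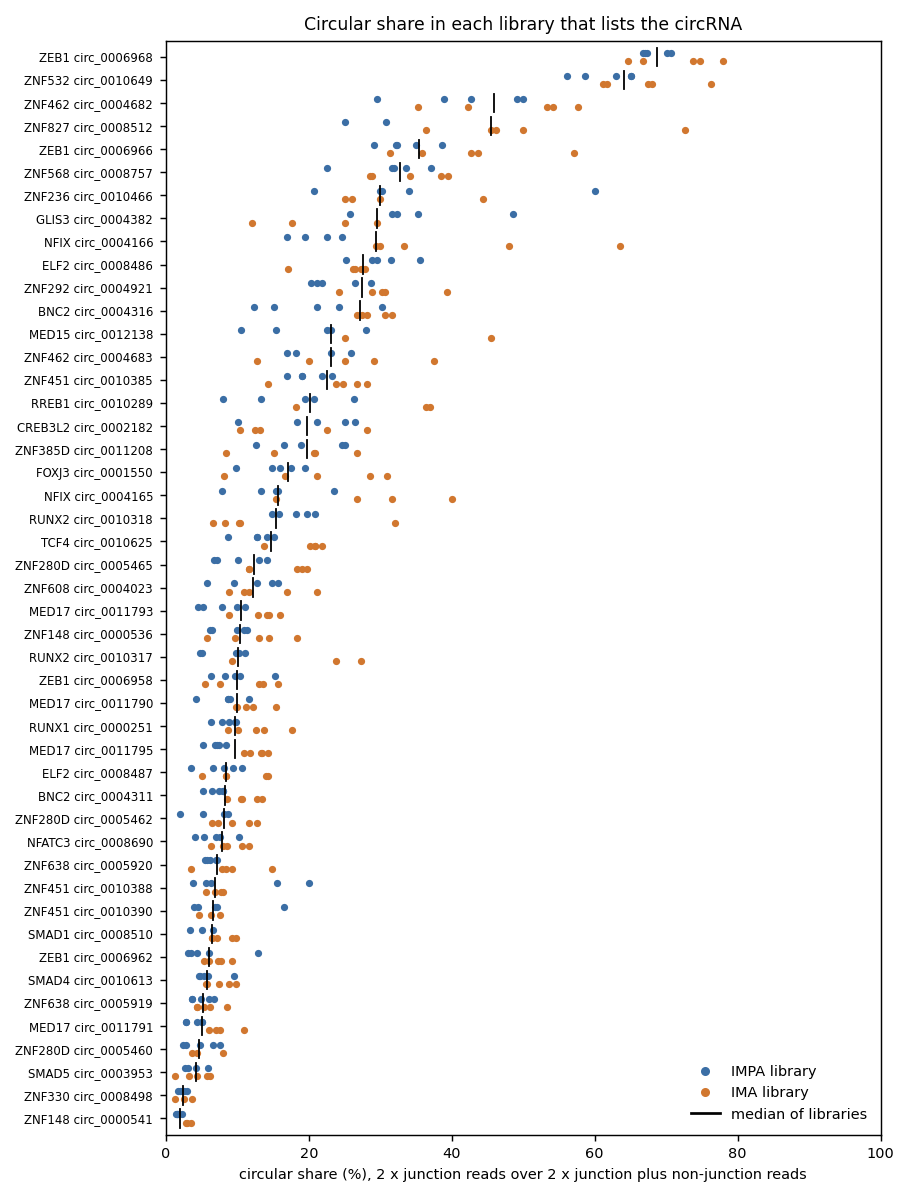
Circular share (%) of each member (y axis) in every library that lists it, with IMPA and IMA libraries in different colours and the median as a line. Medians run from 1.99% for ZNF148 circ_0000541 to 68.7% for ZEB1 circ_0006968.

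Whether junction and non-junction reads changed by different folds was tested for the 29 members in a model of both read kinds with the library as a block. edgeR called 0 members in either direction at an adjusted p under 0.01, where 0.58% of 690 circRNAs were called higher and 0.145% lower. At an adjusted p under 0.05 it called 0 members higher (1.3% of all) and 0 lower (0.87% of all). At an unadjusted p under 0.05, 2 members were higher (7.83% of all) and 2 lower (8.84% of all). Over all libraries, junction reads per 1000 non-junction reads moved with the group, at 48.3 to 54.5 in IMPA and 56.9 to 61.6 in IMA, and the model removes this common shift. The part of that shift in the shares of single circRNAs was not tested.

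MED17 circ_0011795 had the smallest p for the ratio among members. Its circular share was 8.39%, 7.18%, 5.22%, 7.43% and 6.91% in IMPA1 to IMPA5 and 13.5%, 11%, 13.3%, 14.3% and 11.8% in IMA1 to IMA5. Every IMA library lay above every IMPA library, as for 2 of the 29 members and 4.93% of all 690; IMA below IMPA was found in 0 members and 0.145% of all. Its non-junction reads were at 1992 ± 216 CPM in IMPA and 1905 ± 62.7 CPM in IMA (mean ± SD of 5 libraries), with a log2 fold change of -0.06 (95% interval -0.21 to 0.08). The log2 fold change of the ratio was 0.67 (SE 0.24, 95% interval 0.19 to 1.15, Benjamini-Hochberg adjusted p = 0.118 by edgeR). The neighbouring circ_0011793, which ends at the same acceptor, had 0.58 (edgeR adjusted p = 0.194, Benjamini-Hochberg), and circ_0010625 of TCF4 had 0.46 (edgeR adjusted p = 0.346, Benjamini-Hochberg). In the other direction, RUNX2 circ_0010318 had a share of 14.9%, 15.8%, 20.9%, 18.2% and 19.7% in IMPA and 32.1%, 6.56%, 8.22%, 10.2% and 10.4% in IMA. IMA1 alone was above the IMPA libraries and the other IMA libraries were below them. Its log2 fold change of the ratio was -0.83 (edgeR adjusted p = 0.218, Benjamini-Hochberg), and with 1 library removed it ran from -1.42 (without IMA1, adjusted p = 0.0489) to -0.65 (without IMA2, adjusted p = 0.43). ELF2 circ_0008486 had -0.64 and CREB3L2 -0.56 (edgeR adjusted p = 0.276 and 0.361, Benjamini-Hochberg). With 1 library removed these ran from -0.76 to -0.51 for ELF2 and from -0.84 to -0.35 for CREB3L2.

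The deposited predictions pair every member with at least 1 miRNA, 241 of the 435 miRNA names in all. The median number of names per member was 9, as over all circRNAs, and the most were paired with ZNF532 (28) and ZNF292 (23). The names paired with most members were chi-miR-23a and chi-miR-23b-3p, each with 9 members (19.1%), against 51 (3.84%) and 48 (3.62%) of all circRNAs. The 9 members are the same for both names and include the 3 circles of ZNF280D, which share exons. These are predictions from sequence without scores, and miRNA levels were not measured in these libraries.

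Marker genes of cell types could be checked only where they had a circRNA, through its junction reads and the non-junction reads at its ends. The most abundant gene of a list is given by its circRNA's mean over all libraries. Summed TPM is as deposited here, without TMM factors. Over all circRNAs tested, edgeR called 0.464% higher in IMA in junction reads and 11.6% in non-junction reads, at an adjusted p under 0.01. Of 27 adipocyte genes, 2 had circRNAs (INSR and PLIN2), and their summed TPM was 5422 ± 533 in IMPA and 6681 ± 481 in IMA (mean ± SD of 5 libraries), with INSR the most abundant. In junction reads edgeR called 0 of the 2 adipocyte circRNAs tested, with a median log2 fold change of 0.63. In non-junction reads it called 1 of 2 tested higher in IMA, that of PLIN2, a protein of lipid droplets. The median log2 fold change of the 2 was 0.99. PPARG, FABP4 and ADIPOQ had no circRNA and could not be checked. Of 40 striated muscle genes, 5 had circRNAs, with a summed TPM of 1349 ± 335 in IMPA and 3897 ± 947 in IMA (mean ± SD of 5 libraries). PAX7 was the most abundant. For this list edgeR called 2 of 5 tested higher in junction reads, MYBPC1 and MYPN, and 1 of 2 in non-junction reads, MYPN. MYOD1 and DES were without circRNAs. Of 23 fibroblast and matrix genes, 5 had circRNAs, at 3853 ± 770 summed TPM in IMPA and 4866 ± 477 in IMA (mean ± SD of 5 libraries). FBN2 was the most abundant. Called higher were 1 of 7 tested in junction reads, of COL5A1, and 3 of 5 in non-junction reads, of COL5A2 and 2 circRNAs of FBN1. Of 28 cell cycle genes, 3 had circRNAs, at 973 ± 239 summed TPM in IMPA and 320 ± 192 in IMA (mean ± SD of 5 libraries), with none of the 3 called in junction reads and none listed in all libraries. NUF2 was the most abundant over all libraries, though not within IMPA, where it held 323 of the summed TPM. The 8 endothelial and 8 immune genes had 0 circRNAs. The part of these shifts in the values of the members was not tested.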

How the data were processed

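RNA of 10 libraries was sequenced, 5 of IMPA and 5 of IMA, grouped by their labels. The authors removed ribosomal RNA, aligned reads with HISAT2, kept circRNAs found by both find_circ and CIRI2, and deposited junction read counts without normalization. The TPM values deposited by the authors are counts per 1000000 junction reads (CPM). Non-junction counts, positions and predicted miRNA pairs were deposited by the authors in further tables; SAMtools is named in the submitters' notes, and versions and the genome build are not given in the sources used here. A table of circRNAs names 10 further libraries without a label here, which were not used. Gene IDs of all 47 members matched the RefSeq gene table (assembly ARS1.2), used for names and chromosomes only. Members, lists and the rules for named genes were chosen with earlier results of these data known.

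The test of junction counts was that of edgeR 4.0.16 under R 4.3.3 (TMM, glmQLFit and glmQLFTest, prior count 2, Benjamini-Hochberg adjustment, threshold 0.01) over 1294 circRNAs with reads in at least 5 libraries. Non-junction reads and the ratio of both kinds were tested in the same way over the 690 circRNAs listed in all libraries; the planned limit of 5 libraries could not be used, because unlisted libraries are missing values and not zeros. Alternatives were followed for the 5 members with the smallest p in each test and direction. The 10 members of highest mean TPM were named too, and further members to cover each role; NFIX and ZNF330 were chosen after values were seen. Alternatives were DESeq2 1.42.0, limma 3.58.1 voom, other scalings and filters, the library number as blocking factor, each library left out, a threshold of 0.05 and, for the ratio, an exact permutation over 252 assignments, whose smallest p of 0.00794 could not pass the adjustment. Sums per host gene, zeros as missing values, the limma fit with missing values and TMM factors in the members' share were added after the data were seen. The scripts were tested on simulated data. Intervals cover counting error or the spread of libraries, as named, and no molecular identifiers are stated. Python 3.11.15 with scipy 1.17.1 was used for the rest.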

Additional observations from a re-analysis of the deposited data

Results flagged for a closer look

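In 156 groups of 4 or 5 libraries of named members, 7 had a library far from the others by the ratio of its gap to the nearest library over the range of the group, above 0.71 for 5 libraries. Chance marks about 1 in 20 groups, and no cause was tested. In the circular share of RUNX2 circ_0010318, IMA1 was at 32.1% and the other IMA libraries at 6.56% to 10.4% (ratio 0.85). ELF2 circ_0008486 had a share of 17.1% in IMA3 against 26.2% to 27.8% (ratio 0.849), and TCF4 circ_0010625 had 13.7% in IMA4 against 20.2% to 21.8% (ratio 0.809). ZEB1 circ_0006968 stood at 6092 normalized TPM in IMPA4 against 4308 to 4672 in the other IMPA libraries (ratio 0.796).

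In non-junction reads, ZNF385D circ_0011208 was at 526 CPM in IMPA5 against 410 to 426 (ratio 0.863). NFATC3 circ_0008690 was at 849 CPM in IMPA1 against 925 to 948 (ratio 0.766), and ZNF638 circ_0005919 at 2329 CPM in IMA2 against 2059 to 2129 (ratio 0.74).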

How the results depend on the processing

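In junction reads, 0 members were called in either direction under each alternative run, and in the ratio under each but the exact permutation of the circular share, which is not counted. Its smallest possible p, 0.00794, could not pass the adjustment over 690 circRNAs, so its 0 was fixed beforehand. At an adjusted p under 0.01, the counted alternatives called 0.386% to 0.923% of all circRNAs higher and 0.0777% to 3.08% lower in junction reads. In the ratio they called 0.419% to 1.28% higher and 0% to 0.275% lower. For non-junction reads, members called higher numbered 2 of 29 (11.6% of all circRNAs), and 0 without TMM (6.96% of all), 0 with DESeq2's Wald test (9.71%), 1 with limma voom (11.9%), 4 at an adjusted p under 0.05 (18.4%), and 0 to 2 with a library left out (7.59% to 11.2%). Members called lower numbered 0 (10.1% of all), and 2 without TMM (15.4%), both of BNC2, 2 at an adjusted p under 0.05 (17.2%), 2 of 45 with missing values kept (9.55%; chosen after the data were seen), and 0 to 1 with a library left out (7.88% to 10.2%). The cause was not tested. The members' share of junction reads differed by 0.431 percentage points, by 0.2 with TMM factors in the library sizes (chosen after the data were seen), by 0.31 with 1 circRNA per host gene, and by 0.406 to 0.466 with a library left out. Without TMM, all calls were 6 higher and 2 lower in junction reads, 48 and 106 in non-junction reads, and 6 and 0 in the ratio.

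With the replicate number as a block, edgeR called 3 members higher in non-junction reads (13.5% of all circRNAs in that fit), CREB3L2 added (adjusted p = 0.00708, Benjamini-Hochberg, with 0.00471 to 0.108 over its alternatives), and 0 lower (11.6% of all), and 0 in either direction in junction reads; between an IMPA and an IMA library with equal number, residuals correlated at -0.0523 to 0.0105, and no pairing was used. Of 468 further values of 30 named results, 440 stayed on their side of the threshold, 21 lost and 7 gained a call, and 0 reversed. Fits without a filter could not be run for non-junction reads and the ratio. A count under 10 limits most members: 28 of 47 had a mean count under 10.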
